A study of Saccharomyces cerevisiae with 12 samples.

Results

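The genes described here encode the proteins of the large subunit of the cytosolic ribosome of Saccharomyces cerevisiae. They were chosen by name: each protein-coding gene whose symbol is RPL with a number and an optional A or B, plus the genes of the ribosomal stalk, RPP0, RPP1A, RPP1B, RPP2A and RPP2B. This gave 81 of the 6002 protein-coding genes with a promoter. Of these, 70 form 35 paralog pairs with an A and a B copy, and 11 are single-copy genes (RPL3, RPL5, RPL10, RPL25, RPL28, RPL29, RPL30, RPL32, RPL38, RPL39 and RPP0).

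Open chromatin was mapped in strain BY4741, a haploid laboratory strain, by ATAC-seq, which relies on a transposase that inserts sequencing adapters into accessible DNA. The strains carried either synHPRT1R, a reversed synthetic sequence, or synHPRT1, the synthetic human HPRT1 locus. With each construct held on a YAC, a yeast artificial chromosome, or inserted into chromosome XI, there were 4 groups with 3 libraries each: synHPRT1R YAC, synHPRT1R integrated, synHPRT1 YAC and synHPRT1 integrated. All cultures grew at 30 °C and were taken near an OD of 0.6, but the YAC strains were kept in SC-Leu, and YPD was the medium of the integrated strains, so the format of the construct and the medium cannot be told apart. The study asked whether the synthetic sequences are accessible in yeast and how they compare with the yeast genome, to which all 81 genes belong.

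Ribosomal protein genes are among the most actively transcribed genes of growing yeast, and their transcription follows nutrients through the TOR and protein kinase A pathways. Most of their promoters are bound by Rap1, a general regulatory factor that helps to keep nucleosomes away, together with Fhl1, Ifh1 and, at many of them, Hmo1. A minority use Abf1 in place of Rap1. Many yeast ribosomal proteins are made from a pair of genes left by an ancient duplication of the genome, and the copies of a pair encode nearly the same protein.

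The promoter was taken as the 500 bp before and the 100 bp after the annotated start of a gene. Annotated spans appear to be those of coding sequences, since 96.4% of all gene models have a span that is a multiple of 3. Distances here are therefore from the start of the coding sequence and not from that of transcription. A promoter was called open in a library when the summit of a deposited peak lay in it. The lists held 913 to 1303 peaks on the 16 nuclear chromosomes, with 996 ± 44.9 in YAC libraries and 1179 ± 125 in integrated libraries (SD, n = 6 each). Read totals are unknown from peak lists, so a promoter without a summit was not detected as open at the depth of that library, which does not show that it was closed. The weakest nuclear peak of a library had 13 to 16 reads at its summit, as recovered from the deposited values. Whether the replicates were separate isolates or cultures is not stated in the labels, so the spread that p-values measure here is that between libraries and may be technical.

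Large-subunit genes were open far more often than protein-coding genes at large. In the 3 synHPRT1R YAC libraries 46, 49 and 35 of the 81 promoters were open, and in the 3 synHPRT1R integrated libraries 59, 57 and 51. The 3 synHPRT1 YAC libraries had 50, 45 and 47 open promoters, and the 3 synHPRT1 integrated libraries had 46, 49 and 55. The share of members open was 60.6% ± 7.80 (SD, n = 12 libraries), against 15.02% ± 1.98 for all other genes. It lay above the share of all other genes in 12 of 12 libraries. The genes of the small cytosolic subunit had a share of 58.3% ± 6.82, and the large-subunit share was the higher in 7 of 12 libraries, so the subunits did not differ beyond the spread between libraries. The genes of the large subunit of the mitochondrial ribosome (MRPL genes), which are nuclear genes for a separate translation machinery, had 10.3% ± 4.43, below the cytosolic large subunit in 12 of 12 libraries. Peaks at the 81 promoters made up 4.52% ± 0.365 of the nuclear peaks of a library.

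**Figure D1:**
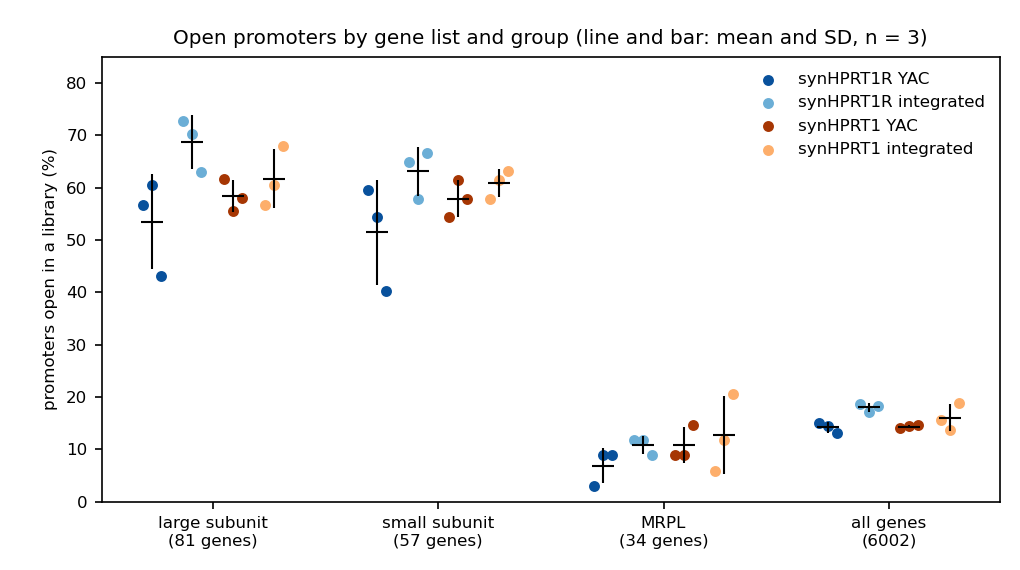
Share of promoters open in each library (vertical axis, %) for large-subunit, small-subunit, MRPL and all protein-coding genes, with a point for each library and the mean and SD of the 3 libraries of a group. The large-subunit points lie between 43.2% and 72.8% and the points of all genes between 13.05% and 18.8%, without overlap.

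The members spread over the whole range, from open in every library to open in none. Of 81 members, 22 were open in all 12 libraries (27.2%, against 3.03% of all genes), and 37 in at least 10 (45.7%, against 7.33% of all genes). Another 23 were open in 3 to 9 libraries and 13 in 1 or 2. No summit lay in the promoter of the other 8 in any library (9.88%, against 63% of all genes). The median member was open in 9 libraries, and the median gene in 0. Copies of the same protein were found at both ends.

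**Figure D2:**
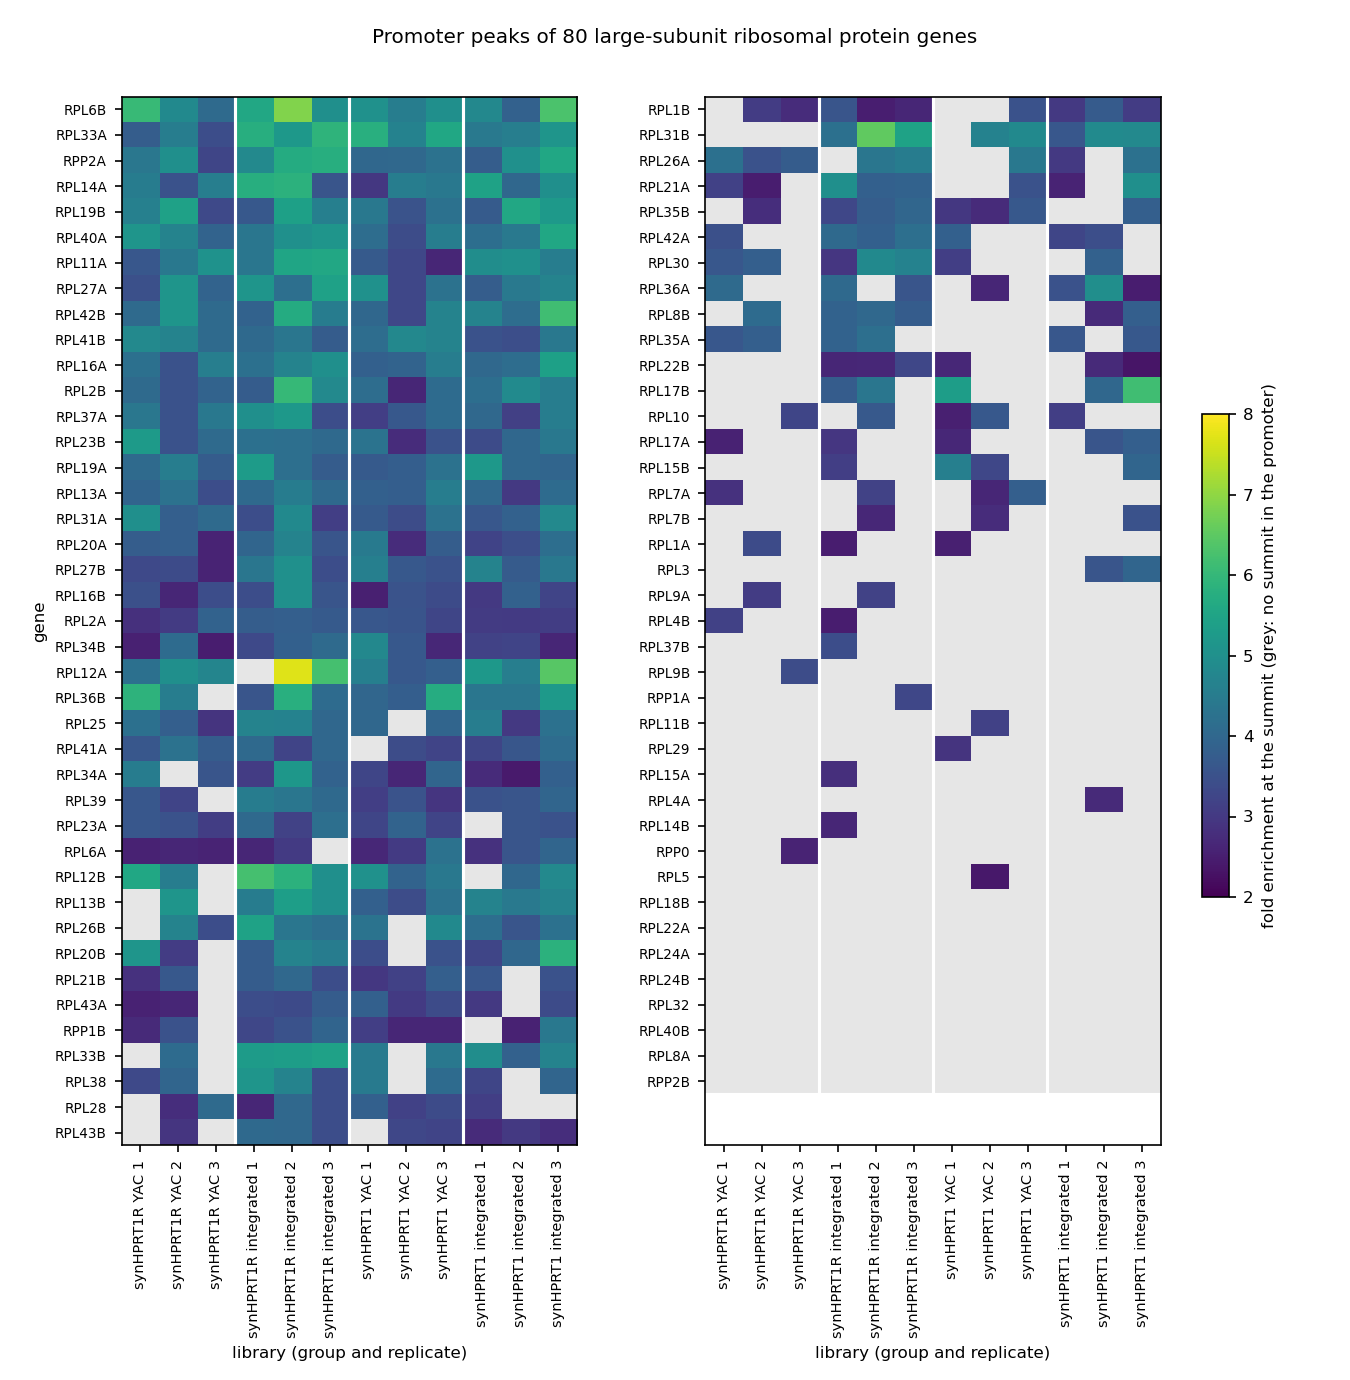
Fold enrichment at the summit, as the authors' peak caller gave it, for 80 of the 81 genes (rows, sorted by number of libraries open, continued in the right panel) in the 12 libraries (columns, by group). Grey marks a promoter without a summit. The 22 genes at the top of the left panel have colour in every column, and the 8 at the foot of the right panel have none.

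The 22 genes open in every library were RPL2A, RPL2B, RPL6B, RPL11A, RPL13A, RPL14A, RPL16A, RPL16B, RPL19A, RPL19B, RPL20A, RPL23B, RPL27A, RPL27B, RPL31A, RPL33A, RPL34B, RPL37A, RPL40A, RPL41B, RPL42B and RPP2A. Fold enrichment, the reads at a summit over the local background, is the authors' value for a peak and only describes or ranks peaks within a list. Among these genes its median over libraries ran from 3.27 at RPL34B to 4.98 at RPL6B. RPL6B ranged from 3.86 to 6.86 with a median of 4.98, and its summit stayed between 213 and 286 bp upstream of the gene start. RPL34B ranged from 2.49 to 4.80.

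By fold enrichment, the strongest and the weakest of the regularly open promoters included paralogs of each other. Among the 37 members open in at least 10 libraries, peaks were ranked by fold enrichment as a percentile of all nuclear peaks of the same library. RPL6B ranked highest, at a median percentile of 91.5, and its paralog RPL6A lowest, at 15.5, although RPL6A was open in 11 libraries and RPL6B in 12. Fold enrichment at RPL6A had a median of 2.86 and a range of 2.56 to 4.25 over its 11 libraries. Next to RPL6B came RPL12A at 90.3, RPL12B at 84.4, RPL33A at 84.0 and RPP2A at 83.8. RPL12A and RPL12B encode the protein at the base of the stalk, and RPP2A an acidic stalk protein. Above RPL6A stood RPP1B at 33.9, RPL43A at 37.0, RPL34B at 38.4 and RPL2A at 41.7. This rank is of reads over local background, not of reads. RPL2A had a median summit pileup of 31 reads, as RPL12A had, against 17 at RPL6A. RPP1B encodes an acidic stalk protein too, so members of the stalk were found at both ends. Over all members, the median percentile of a promoter peak was 63.3 ± 4.004, against 47.0 ± 1.17 for peaks in the promoters of other genes (SD, n = 12). It was the higher in 12 of 12 libraries. Summit pileups behind these values were modest, with a library median of 25.7 ± 1.68 reads at members, against 22.8 ± 1.64 at other promoters.

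The 8 genes with no summit in any library were RPL8A, RPL18B, RPL22A, RPL24A, RPL24B, RPL32, RPL40B and RPP2B. They differ in what lay farther upstream. RPL32 had a summit 501 to 1000 bp upstream in 12 of 12 libraries, at a median of 678 bp, in the 1059 bp it shares with the divergent gene ROX3. The start of ROX3 was nearer to that median, at 382 bp. RPL24B had a summit 501 to 1000 bp upstream in 12 libraries, at a median of 679 bp, and RPL24A in 11, at a median of 703 bp. The starts of their divergent neighbours were nearer, GPC1 at 573 bp and RPL30 at 454 bp. The start of RPL24A faces that of RPL30 across 1156 bp, and RPL30 was open in 7 libraries. RPL18B had a far summit in 1 library, at 800 bp. RPL8A, RPL22A, RPL40B and RPP2B stayed at 0 of 12 libraries when the window was widened to 900 bp upstream and when any overlap of a peak with the promoter was counted. The wider window was added after the values were seen. With it, 69.2% ± 6.75 of members were open per library, and 31 in every library.

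By role in the subunit, the stalk was mixed. The stalk recruits and activates the GTPase factors of translation, and 53.6% of gene-library combinations of its 7 genes were open. RPP2A was open in 12 libraries, RPL12A in 11, RPL12B in 10 and RPP1B in 10. By contrast RPP0, which encodes the central stalk protein, and RPP1A were open in 1 library each, and RPP2B in 0. Of the 3 genes of the 5S ribonucleoprotein, RPL11A was open in 12 libraries, RPL11B in 1 and RPL5 in 1. RPL5 and RPL11 bind the 5S ribosomal RNA together.

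Genes for proteins lining or surrounding the peptide exit tunnel were open in 66.1% of gene-library combinations (14 genes). RPL19A, RPL19B and RPL31A were open in 12 libraries. RPL25, where the signal recognition particle docks, and RPL39, a very small protein of the tunnel wall, were open in 11. RPL26B was open in 10 libraries, RPL26A, RPL31B and RPL35B in 8 and RPL35A in 6. RPL17A and RPL17B, of the tunnel wall, were open in 5 libraries each. RPL4A was open in 1 library and RPL4B in 2, although the L4 protein reaches into the tunnel like L17. Around the peptidyl transferase centre, where the peptide bond forms, RPL2A and RPL2B were open in 12 libraries, RPL28 in 9, RPL10 in 5 and RPL3 in 2. RPL3 had a summit 501 to 1000 bp upstream in 11 libraries, at a median of 796 bp, so the 900 bp window raised it to 12. That median lay nearer to the divergent gene YOR062C, 359 bp from its start. The other 50 genes were open in 61.2% of gene-library combinations, close to the share of all members.

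A and B copies were compared within each library, so that depth, format and medium are shared by the copies of a pair. A two-sided exact permutation test, which flips the sign of the A minus B difference of each of the 12 libraries, was applied to all pairs of genes in the genome named this way whose calls differed in at least 1 library, and p-values were adjusted by Benjamini-Hochberg over those 49 pairs. The copies differed in 11 of the 49 (22.4%), with the A copy open more often in 14.3% and the B copy in 8.16%. Among the 30 large-subunit pairs tested, 6 differed, against 5 of 19 others (26.3%), so large-subunit pairs were not called more often than the rest. All 5 of the others were small-subunit pairs. Apart from COX5 and NHP6, every other pair named this way is a small-subunit pair. The comparison is therefore almost wholly with ribosomal protein genes and gives no wider background.

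In 5 of these 6 pairs the A copy was open in all 12 libraries and the B copy in 1 or none. RPL40A was open in 12 libraries and RPL40B in 0 (exact p = 0.000488, the smallest the test can give, adjusted p = 0.00684). RPL40 is made as a fusion to ubiquitin and is a source for the cell of that protein. RPP2A was open in 12 and RPP2B in 0, with the same p and adjusted p of the sign-flip permutation test. RPL11A, RPL14A and RPL37A were open in 12 libraries, and RPL11B, RPL14B and RPL37B in 1 each (exact p = 0.000977 and adjusted p = 0.00684 for each pair). In the sixth pair the B copy was open more often: RPP1A in 1 library and RPP1B in 10 (exact p = 0.00391, adjusted p = 0.0213). Rpp1 and Rpp2 proteins pair with each other on the stalk, and the copies open in 10 libraries or more were RPP2A and RPP1B. Whether the openness of a copy goes with this pairing was not tested.

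The peaks behind these calls had fold enrichments within the range of the other open members. RPL40A lies on chromosome IX at 68708 to 69528, and fold enrichment at its promoter was 3.40 to 5.56 with a median of 4.49. RPL40B lies on chromosome XI at 617996 to 618750. At RPL11A, on chromosome XVI at 731224 to 731748, fold enrichment was 2.64 to 5.60 with a median of 4.47, and the summits lay 274 to 387 bp upstream. The single peak at RPL11B, on chromosome VII at 648383 to 648907, had a fold enrichment of 3.15. At RPP1B, on chromosome IV at 229906 to 230527, the median fold enrichment was 3.19 over 10 libraries, and no summit was called in synHPRT1R YAC replicate 3 and synHPRT1 integrated replicate 1. RPL14A, on chromosome XI at 431906 to 432720, had a median of 4.53, and RPL37A, on chromosome XII at 522663 to 523288, a median of 4.07.

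**Figure D3:**
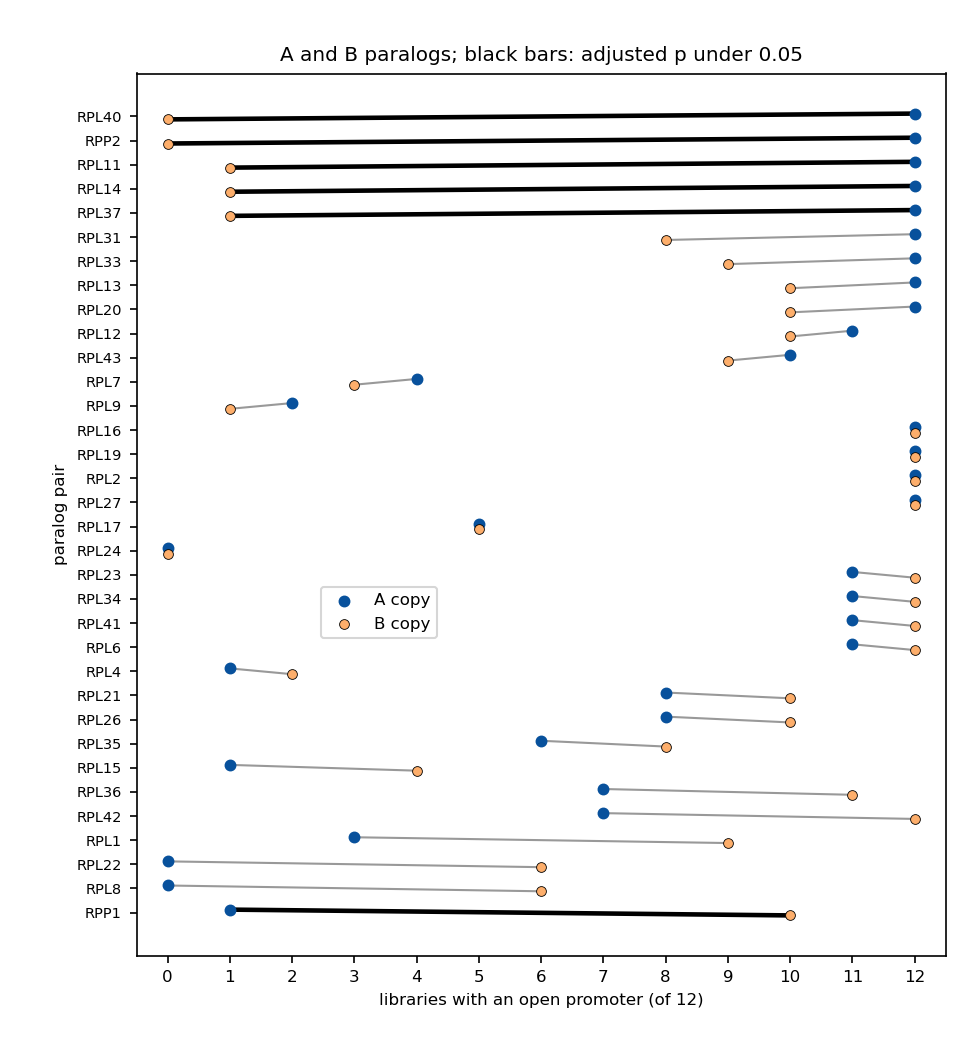
Number of the 12 libraries with an open promoter (horizontal axis) for the A copy and the B copy of 34 of the 35 pairs (rows, from most A to most B). Black bars join the 6 pairs with an adjusted p under 0.05. Long bars stand at both ends and pairs with equal counts in the middle, 4 of them at 12 and 12.

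Further pairs differed by 6 libraries or more without passing the adjusted test. RPL8A and RPL22A were open in 0, and RPL8B and RPL22B in 6 each (exact p = 0.0312 and adjusted p = 0.102 for each of these 2 pairs). RPL1A, for the protein of the L1 stalk by the tRNA exit site, was open in 3 and RPL1B in 9 (exact p = 0.0703, adjusted p = 0.203).

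Most pairs had like counts, with 20 of 35 differing by 2 libraries or fewer. RPL2, RPL16, RPL19 and RPL27 were open at both copies in all 12 libraries, and 11 pairs at both copies in at least 10. RPL4, RPL9 and RPL24 were open at both copies in 2 libraries or fewer. The A copy was open in more libraries in 14 pairs and the B copy in 15, with 6 equal. In a library, 23.3 ± 2.31 A copies and 21.0 ± 4.49 B copies were open (SD, n = 12), and A copies outnumbered B copies in 9 of 12 libraries. Both copies were open in 16 ± 3.38 pairs and neither in 6.67 ± 3.06. Single-copy genes were open in 43.2% of gene-library combinations, from RPL25 and RPL39 in 11 libraries to RPL32 in 0. A copies were open in 66.7% and B copies in 60.0%. With the 900 bp window these shares were 65.9% for single-copy genes, 71.0% for A copies and 68.6% for B copies.

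Which gene a summit is credited to changes the paired calls. Where a summit counted only for the nearest gene start, RPL14, RPL37 and RPP1 were called again. RPL11A was then open in 2 libraries, because most of its summits lay nearer to PRE2, RPL40A in 7 (neighbour MLP2) and RPP2A in 5 (neighbour RPS15). RPL11 (adjusted p = 1), RPL40 (adjusted p = 0.0753) and RPP2 (adjusted p = 0.186) were not called in that sign-flip permutation test, and RPL20, RPL21, RPL31 and RPL33 were. The new calls also follow from neighbours. RPL20A fell from 12 libraries to 0 (neighbour YMR242W-A, 76 bp away) and RPL21B from 10 to 0 (neighbour YPL080C, 137 bp away). RPL31B fell from 8 and RPL33B from 9 to 2 each. With a window of 300 bp upstream no pair was called.

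YAC libraries had fewer open large-subunit promoters than integrated libraries, but the ranges overlapped and no gene passed the test. Per library 45.3 ± 5.39 members were open in YAC strains (lowest 35, median 46.5, highest 50), against 52.8 ± 5.00 in integrated strains (lowest 46, median 53, highest 59). The shares were 56.0% ± 6.66 in YAC and 65.2% ± 6.17 in integrated libraries (SD, n = 6 each), and those of all genes were 14.3% ± 0.688 and 17.02% ± 2.02. YAC minus integrated was −9.26 percentage points for the members. YAC lists also held fewer peaks. With the same 913 strongest nuclear peaks kept in each library, the difference was −5.76 points for the members and −0.117 points for all genes. Equal numbers of peaks nearly fix the share of all genes in advance, so that value is no background for the members. With all peaks kept, the small-subunit share was lower in YAC libraries too, 54.7% ± 7.56 against 62.0% ± 3.62 (SD, n = 6 each).

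Per gene, Fisher's exact test with Benjamini-Hochberg adjustment called 0 of 2040 genes between formats (0%), and 0 of the 51 members open in some but not all libraries. At an unadjusted p under 0.05 it gave 11 genes and no member, and an exact permutation test within construct gave 0 calls and 11 genes unadjusted. Of the 51 members, 30 were open in more integrated libraries (58.8%, against 54.5% of genes tested) and 12 in more YAC libraries (23.5%, against 28.5%). These shares are near those of all genes. For any gene to pass the adjustment over 2040 tests, at least 89 genes would have to reach the smallest p that 6 against 6 libraries allow, so a call of 0 says little about single genes.

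By 4 libraries or more, 3 members were open more often in integrated strains (2.35% of genes tested were) and none in YAC strains (0.637%). RPL31B, for a protein at the rim of the exit tunnel, was open in 2 of 6 YAC and 6 of 6 integrated libraries (exact p = 0.0606, adjusted p = 1). Its peaks were 693 to 908 bp wide, and in the 4 libraries without a summit in the window the summit lay 553 to 596 bp upstream, with a fold enrichment of 3.999 to 5.54. By overlap of peaks it was open in all 12. RPL8B was open in 1 YAC and 5 integrated libraries, with every summit between 163 and 172 bp upstream. RPL22B was open in 1 YAC and 5 integrated libraries, at fold enrichments of 2.34 to 3.27 (exact p = 0.0801 and adjusted p = 1 for each of these 2 genes).

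The constructs gave nearly equal counts. The share of members open was 61.1% ± 10.6 with synHPRT1R and 60.1% ± 4.46 with synHPRT1 (SD, n = 6 each), a difference of 1.03 points. Fisher's exact test with the same adjustment called 0 of 2040 genes (0%) and no member, with 1 gene and no member at an unadjusted p under 0.05. The exact permutation test within format also called 0, with 1 gene unadjusted. Of the 51 members, 21 were open in more synHPRT1R libraries (44.7% of genes tested were) and 20 in more synHPRT1 libraries (35.9%). No member differed by 4 libraries. RPL30, whose protein represses splicing of its own transcript in yeast, differed most, with 5 synHPRT1R and 2 synHPRT1 libraries (exact p = 0.242, adjusted p = 1). In 4 libraries without a summit in its window the summit lay 506 to 543 bp upstream, just outside. By overlap of peaks RPL30 was open in 11 libraries.

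Among the 4 groups, 28 members were open in all 3 synHPRT1R YAC libraries (6.41% of all genes were), 47 in all 3 synHPRT1R integrated (9.75%), 35 in all 3 synHPRT1 YAC (6.96%) and 37 in all 3 synHPRT1 integrated libraries (8.33%). The low count of synHPRT1R YAC includes its replicate 3, with 35 open members and the fewest nuclear peaks, 913. Without that library YAC minus integrated was −6.71 points, and synHPRT1R minus synHPRT1 was 4.61 points.

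Summits at large-subunit genes kept to a narrower band than those of other genes. Over the 589 cases of a member open in a library, the median position was 271 bp upstream of the gene start (quartiles 339 and 214 bp upstream), against 289 bp at other genes (385 and 186 bp). Between 100 and 400 bp upstream lay 88.1% of the members' summits and 69.3% of those of other genes. Downstream of the start lay 0.170% and 4.001%. A summit counted for every gene whose window held it, so the positions of both sets include summits nearer to a neighbour. Positions were not compared by nearest start or at like distances to the upstream neighbour. For a single member the summit moved between libraries, by a median of 189 bp over the 53 members open in at least 6 libraries. It moved least at RPL8B (9 bp) and most at RPL26A (339 bp). This range covers only the libraries with a summit in the window, 6 at RPL8B and 8 at RPL26A. It can grow with their number and is cut off at the window edge. RPL26A also had a summit 501 to 1000 bp upstream in 4 libraries.

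**Figure D4:**
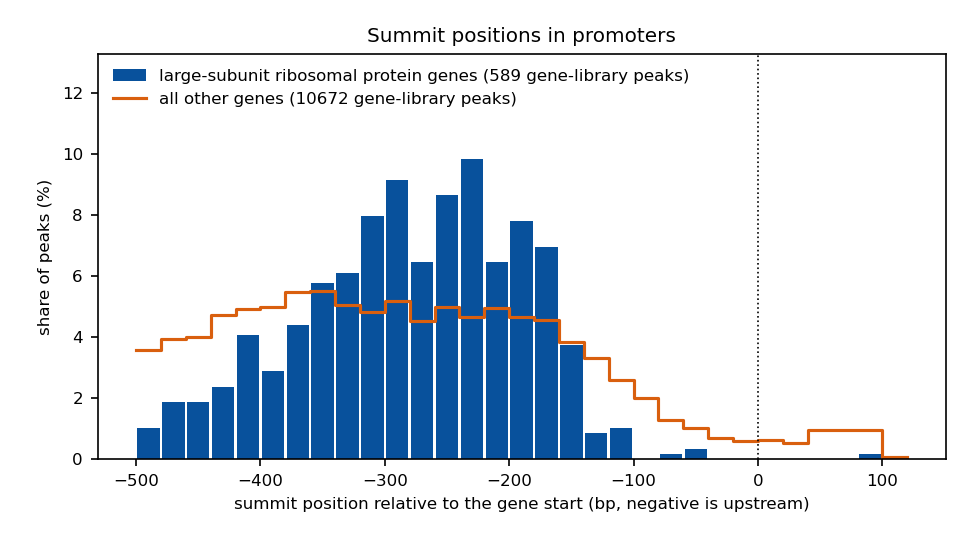
Position of the promoter summit relative to the gene start (horizontal axis, bp, negative is upstream) as a share of all summits in 20 bp bins (vertical axis, %), for large-subunit genes (bars, 589 cases) and all other genes (line, 10672 cases). The bars stand above the line from 360 to 160 bp upstream and below it farther out and nearer to the start, and they are nearly absent downstream of the start.

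Many members share their upstream region with another gene. The windows of 37 of the 81 members overlapped that of another protein-coding gene, and in 221 of 589 cases (37.5%) the summit lay in such a gene's window too. The member's own start was the nearest in 475 of 589 (80.6%). These counts were not made for other genes, so they do not show that sharing is particular to the members. The median gap to the upstream neighbour was 641 bp at members and 445 bp at other genes. A member with a divergent upstream neighbour was open in 65.1% of gene-library combinations (43 genes), and one with a tandem neighbour in 55.5% (38 genes), against 19.7% and 9.87% for other genes. Some members face another ribosomal protein gene. RPL13A was open in 12 libraries and RPS16B in 12, RPP2A in 12 and RPS15 in 12, RPL39 in 11 and RPS22A in 12, and RPL13B in 10 and RPS16A in 9. A summit between such genes counts for both where it lies in both windows.

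Members with an intron were open more often than members without. This feature was chosen after the values were seen, so the counts are a description with no test, and the list of introns comes from textbook knowledge, since the gene table gives only spans. Introns are rare in yeast but common in ribosomal protein genes. The 54 members with an intron were open in a median of 10 libraries and in 72.7% of gene-library combinations, and the 27 without in a median of 2 libraries and 36.4%. Of those with an intron, 19 were open in all 12 libraries and 6 in 2 or fewer. Of those without, RPL11A, RPL41B and RPP2A were open in all 12, and 15 in 2 or fewer. With the 900 bp window the shares were 78.5% and 50.6%. Split by span alone, 31 members whose span is not a multiple of 3 were open in 72.8%, against 53.0% for the other 50. Among small-subunit genes, 26 whose span is not a multiple of 3, as an intron can leave it, were open in 76.6%, against 43.0% for the other 31. For other genes the same split gave 12.1% and 14.7%.

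**Figure D5:**
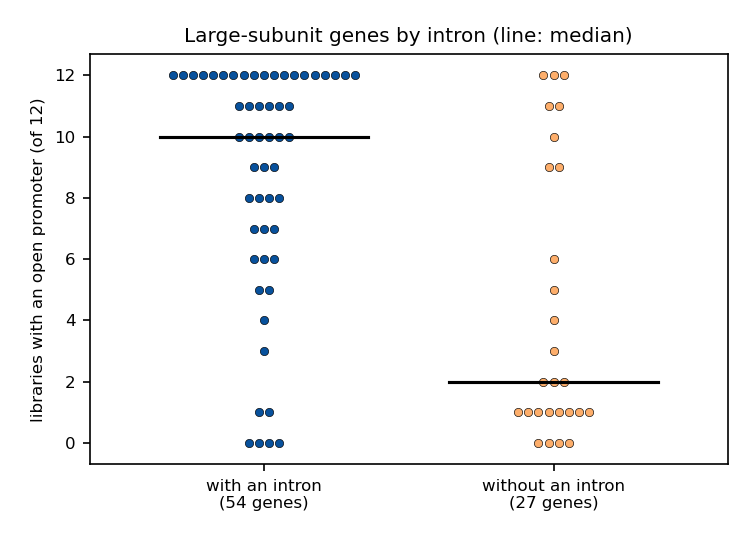
Number of the 12 libraries with an open promoter (vertical axis) for each large-subunit gene with an intron (54 genes, left) and without (27 genes, right), with the median as a line. The medians are 10 and 2 libraries, and both classes hold genes at 0 and at 12.

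The genes that regulate or serve large-subunit production were open less often than the members themselves. Of 15 regulators, 7 were open in at least 1 library (46.7%, against 90.1% of members and 37.0% of all genes), and 27.8% ± 8.45 were open per library (SD, n = 12), against 15.6% ± 2.04 of all genes. HMO1 and ABF1, for factors that bind ribosomal protein promoters, were open in 11 libraries each, and REB1, for another general regulatory factor, in 10. DOT6 and TOD6, for repressors of ribosome biogenesis genes, were open in 9 and 6. RAP1 was open in 0 YAC and 2 integrated libraries, and TOR1 in 1 library. FHL1, IFH1, SFP1, CRF1, TBF1, CBF1, STB3 and SCH9 were open in none. Of 16 assembly factors of the large subunit, 14 were open in no library (87.5%, against 9.88% of members and 63% of all genes). BUD20, whose start faces that of RPL10 across 470 bp, was open in 5 libraries, as RPL10 was. The summits at RPL10 lay 55 to 179 bp from its start, which was the nearest, and they fall in the window of BUD20 too. NOG1 was open in 0 YAC and 4 integrated libraries (exact p = 0.0606, adjusted p = 1 in Fisher's exact test). None of these genes passed the test between formats.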

How the data were processed

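The authors deposited 12 MACS2 peak lists, 1 per library and none pooled. Per the submitters' processing notes, the build was sacCer3 and the tools included Bowtie2 2.2.9 and MACS2 2.1.0, besides SAMtools 1.9, deepTools 3.5.0 and bcl2fastq 2.20. Not given in the sources used here are the calling options and the treatment of duplicates, read ends and multi-mapping reads, and reads from near-identical paralogs could be split or lost. Each deposited row holds a position, a score, the fold enrichment as a ratio to local background, and −log10 of the p-value and of the q-value. The deposited score was not used, and the other values described, ranked or filtered the peaks of 1 list at a time. Summit pileups were recovered from the deposited fold enrichment and −log10 p under the Poisson model with a pseudocount of 1, within 0.01 for 99.9% of 13052 nuclear peaks, and 13 were left out.

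Gene starts came from the RefSeq table of assembly R64, the sequence of sacCer3, with strand from the systematic names, and symbols matched all 81 members, 15 of 15 regulators and 16 of 17 assembly factors. Groups and formats were compared per gene by Fisher's exact test over genes open in 1 to 11 libraries, and pairs of an A and a B copy by an exact sign-flip permutation test, two-sided, over 61 pairs in the genome, of which 49 differed in at least 1 library. Pairs of systematic names ending in -A and -B were left out and added in an alternative. P-values were adjusted by Benjamini-Hochberg with a threshold of 0.05. The smallest Fisher p for 6 against 6 libraries is 0.00216. The tests are two-sided. Fisher's exact test, the permutation test and the replicate block were run on simulated data whose planted genes were fully separated between formats. That simulation does not show how weaker differences would fare. The sign-flip formula was checked against direct enumeration on a made-up case, and the test of pairs was not run on simulated data.

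The members, the lists and the rule for named genes were chosen with earlier results of these data known. That rule took members open in 12 or 0 libraries, pairs differing by 6 or more, members differing by 4 or more between formats or constructs, and the 5 highest and 5 lowest by rank of fold enrichment. The intron split, the 900 bp window and the wider family of pairs were added after values were seen. Alternatives were windows of 300 and 900 bp, nearest start only, overlap of peaks, a fold enrichment of at least 3, a −log10 q of at least 10, equal numbers of peaks, rarely open genes left out, a permutation test, a replicate block, each format alone and each library left out in turn. Promoter sequences and motifs were not analysed here, and 1 member, counted in all totals, is not reported by name. Python 3.11.15, numpy 2.4.6, pandas 2.3.3 and scipy 1.17.1 were used.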

Additional observations from a re-analysis of the deposited data

Results flagged for a closer look

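The third synHPRT1R YAC library had 35 open large-subunit promoters, the lowest of the 6 YAC libraries, and the nearest of the others had 45. The gap was 0.667 of the range of the YAC libraries, above Dixon's 95% critical value of 0.625 for 6 samples. Chance flags about 1 in 20 such groups, and 12 were examined. The same library had 913 nuclear peaks, the fewest of all, and 23 open small-subunit promoters, also the fewest. RPL36B and RPL39 were open in 11 libraries and lacked a summit only in this library, so 24 members were open in all of the others. The part of its shorter list in the low count was not tested.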

How the results depend on the processing

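The share of members open per library (60.6%) was 37.3% with 300 bp upstream, 48.9% with the nearest start only, 52.7% at a fold enrichment of at least 3, 13.4% at a −log10 q of at least 10 and 69.2% with 900 bp, each counting fewer or more summits by construction. Members open in every library (22) numbered 2 with 300 bp, 9 with the nearest start, 13 at the fold minimum and 0 at the q minimum. Of the 11 pairs called, 6 of them large-subunit pairs, 0 and 0 were called with 300 bp, at the q minimum, in YAC libraries alone and in integrated libraries alone. With 6 libraries the smallest p is 0.0312, which cannot pass the adjustment here, and for the other settings the cause was not tested. RPP1 was not called at the fold minimum, where the other 5 pairs were, and RPL15 was added by overlap and by 900 bp.

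YAC minus integrated ran from −12.8 points at the fold minimum to −5.76 points with equal numbers of peaks, beyond the SD between libraries in both settings. The difference of synHPRT1R minus synHPRT1 was −1.03 points with 300 bp and −0.823 with equal numbers of peaks, against 1.03, within that SD. No setting called a gene between formats or constructs. In the main setting, with 2040 tests, at least 89 genes at the smallest Fisher p are needed for a call. The number needed differs between settings and was not worked out for the others. The absence of calls therefore says nothing about stability. Leaving out each library in turn gave shares of 59.5% to 62.2%, YAC minus integrated of −10.9 to −6.71 points, synHPRT1R minus synHPRT1 of −1.32 to 4.61 points, 22 to 24 members open in every library, 9 to 11 pairs and 6 to 6 large-subunit pairs called, and 0 to 0 genes called. The replicate numbers did not pair the libraries: deviations of same-numbered libraries correlated at 0.00455 on average, and 0 of 18 pairs exceeded 0.1. With a replicate block 0 genes were called between formats (2 at an unadjusted p under 0.05) and 0 between constructs (0 unadjusted), in a test whose smallest p is 0.0312. The depth of these lists limits all absences.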

Other observations

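The distance to the upstream neighbour went with how often a member was open, without a steady trend. Members with 500 to 999 bp to the next protein-coding gene upstream were open in 74.4% of gene-library combinations (45 genes), those with less in 46.7% (23 genes) and those with 1000 bp or more in 37.2% (13 genes). For other genes the shares were 26.1%, 8.87% and 16.6%. The classes of distance were chosen after values were seen, and no test was made. RPL24A, RPL24B, RPL32 and RPL3 are among the members with 1000 bp or more, and summits recurred 501 to 1000 bp upstream of them, outside the window. By the median, those summits lay nearer to the start of the divergent neighbour. The distances were 454 bp from RPL30, 573 bp from GPC1, 382 bp from ROX3 and 359 bp from YOR062C. Which gene these summits belong to was not tested.

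Far summits also recurred upstream of RPL15B and RPL17B. RPL15B was open in 4 libraries and had a summit 501 to 1000 bp upstream in 10, at a median of 665.5 bp. That lies beyond the 352 bp gap to its upstream neighbour YMR122C. RPL17B was open in 5 and had such a summit in 7, at a median of 518 bp. The start of the divergent gene ATG27 was nearer to it, at 171 bp. Paralogs without an intron held both kinds of pair: RPL12 and RPL41 were open at both copies in at least 10 libraries, and RPL4, RPL9 and RPL24 at both copies in 2 or fewer.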
